A study of Mus musculus with 8 samples.

Results

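Cym and Smoc2 are 2 genes, of 24583 measured on these arrays, whose signal was high in the lungs with a low signal of Etv5. They were chosen from these same values, so their levels by array are given as a description, without a test. The 2 genes were found by their symbols and are covered by 4 spots of 43941 named spots, 1 for Cym and 3 for Smoc2, and the brightest spot stands for the gene.

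The samples were 8 left lung lobes of mouse embryos at E14.5, a day of embryonic branching of the lung, each on 1 one-colour array, 4 labelled experimental and 4 labelled control and numbered 1 to 4 in their titles. According to the study's methods, experimental embryos were Rosa26rtTA/rtTA; Tg(tet(o)sFgfr2b)/+ and controls were littermates of the genotype Rosa26rtTA/rtTA; +/+. All embryos therefore carried the reverse tetracycline transactivator from the Rosa26 locus, and all were collected 9 h after their mother had been given doxycycline intraperitoneally (0.0015 mg for each g she weighed). Doxycycline induces a soluble Fgfr2b in experimental embryos, which is secreted and captures the ligands of this receptor in the whole embryo rather than in 1 cell type. Values are quantile-normalized log2 signals, so a difference of 1 is a doubling.

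Etv5 is an Ets transcription factor that Fgf10 induces through Fgfr2b in the distal lung epithelium. Cym encodes chymosin, an aspartic protease of the pepsin family, best known in the calf as the stomach enzyme that clots milk. Smoc2 encodes a secreted calcium-binding glycoprotein of the SPARC family, matricellular proteins that sit in the extracellular matrix and modulate how cells respond to it. In the gut of the adult mouse, Smoc2 is also one of the genes that mark Lgr5-positive stem cells.

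The labels did not order the values. Arrays labelled experimental 1 to 4 gave Etv5 signals of 10.42, 10.43, 13.11 and 13.26. Those labelled control 1 to 4 gave 10.09, 10.57, 13.18 and 13.26. Both labelled groups thus held 2 arrays with low and 2 with high Etv5, and the level went with the number in the title. Groups are therefore named here by what their label says, with no claim on genotype. The arrays numbered 1 and 2 and those numbered 3 and 4 are set side by side below as 2 sets of 4 arrays, which were set apart by Etv5 and are not the groups that the labels give.

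Cym was among the most strongly divided genes. Its signal in numbers 1 and 2 was 14.34 and 14.10 under the label experimental, and 13.77 and 13.91 under the label control. Numbers 3 and 4 had 10.23 and 11.08 (experimental) and 10.55 and 10.90 (control). Every array numbered 1 or 2 lay above every array numbered 3 or 4, and the nearest arrays of the sets (control 1 and experimental 4) were 2.69 apart, which is 6.44-fold. Inside the sets the arrays spanned 0.57 (numbers 1 and 2) and 0.86 (numbers 3 and 4), so arrays of a set lay closer to each other than to any array of the other set.

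For Smoc2, the brightest spot gave 12.84 and 12.79 (experimental) and 12.44 and 12.42 (control) for numbers 1 and 2. For numbers 3 and 4 it gave 10.65 and 10.64 (experimental) and 10.65 and 10.79 (control). The sets were again apart, by 1.63 or 3.09-fold between their nearest arrays, and spanned 0.42 and 0.16 inside. The arrays numbered 3 and 4 were close to each other, whereas in those numbered 1 and 2 both arrays labelled experimental lay above both labelled control.

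The other spots of Smoc2 served as a check of the brightest one on the same RNA. The second spot, annotated to the same transcript, had 10.61 and 10.62 (experimental) and 10.42 and 10.25 (control) for numbers 1 and 2. For numbers 3 and 4 it had 8.11 and 7.58 (experimental) and 7.98 and 8.57 (control). Its gap of 1.68 was close to that of the brightest spot. The third spot, annotated to the cDNA clone AK040109, was dim, at 4.80 to 5.30 in numbers 1 and 2 and 3.35 to 4.59 in numbers 3 and 4. On that spot the sets were separated by only 0.22, with signals near the array median of 4.43, and spanned 0.50 and 1.23 inside.

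**Figure D1:**
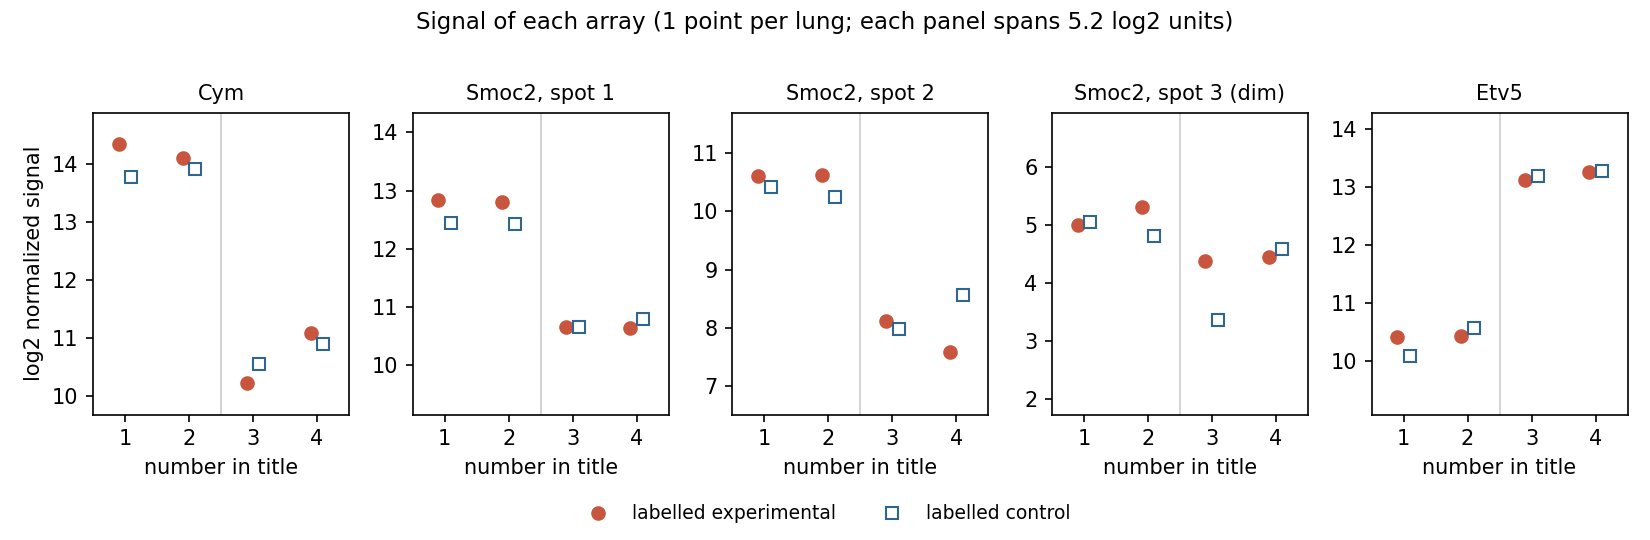
Log2 normalized signal (y axis) of Cym, the 3 spots of Smoc2 and Etv5 by the number in the array's title (x axis), 1 point per lung, with filled circles for arrays labelled experimental and open squares for arrays labelled control. Cym lies at 13.77 to 14.34 in numbers 1 and 2 and at 10.23 to 11.08 in numbers 3 and 4, Etv5 runs the other way, and within a number the labels differ by at most 0.57 for Cym, while the second spot of Smoc2 differs by 0.99 in number 4.

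Set against Etv5 on the same arrays, the order was opposite at the level of the sets but not array by array. The arrays numbered 1 and 2 had Etv5 at 10.09 to 10.57 and those numbered 3 and 4 at 13.11 to 13.26, a gap of 2.55. Within numbers 1 and 2, the lowest Etv5 was in control 1, which also had the lowest Cym of that set. Within numbers 3 and 4, the lowest Etv5 was in experimental 3, which again had the lowest Cym. Smoc2 differed from this, with its lowest signals in control 2 (12.42) and experimental 4 (10.64), where Etv5 was 10.57 and 13.26. Because the arrays fall into separate clusters, no correlation over the 8 arrays is given.

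The sex-linked pattern of the arrays did not follow the division. Xist, the transcript that coats the inactive X chromosome, was 2.98 to 3.63 in the arrays numbered 1 and 3 and 7.45 to 8.21 in those numbered 2 and 4. The Y-linked gene Eif2s3y, taken after its values were seen because Ddx3y had no named spot in use, was 8.87 to 9.02 in numbers 1 and 3 and 2.32 to 3.83 in numbers 2 and 4. Within the arrays numbered 1 and 3, the gap was 3.22 for Cym, 1.78 for Smoc2 and 2.69 for Etv5 (opposite direction). Within those numbered 2 and 4 it was 2.83, 1.63 and 2.69. Each part held arrays of both sets, so its gap could only equal or exceed that of all 8 arrays. The gaps are thus a description, and the levels show only that the sex-linked pattern cut across the division.

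Over all genes, 1271 (5.17%) had every array numbered 1 or 2 above every array numbered 3 or 4, and 1325 (5.39%) had the reverse. Ordered by the gap between nearest arrays, Cym was rank 1 and Smoc2 rank 2 of the genes higher in numbers 1 and 2. The ranks that followed were Capn9 (a gap of 1.27), Blnk (1.18) and Abcg5 (1.01). In the other direction, 5 genes had a wider gap than Etv5, up to 3.83 for the transporter Slco4c1 and 3.57 for the surfactant gene Sftpa1. These genes were picked after their values were seen, and the ranks restate the choice of the genes and are not support for it.

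**Figure D2:**
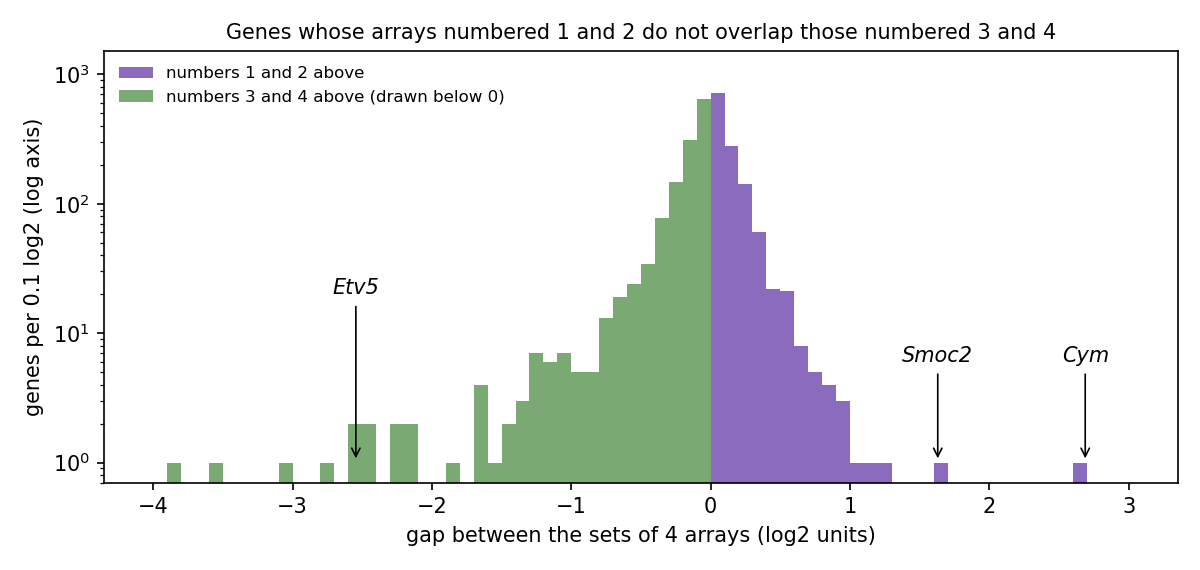
Number of genes (log axis) by the gap in log2 units between the nearest arrays of the sets numbered 1 and 2 and numbered 3 and 4, for genes whose sets do not overlap, with genes higher in numbers 3 and 4 drawn below 0. Cym (2.69) and Smoc2 (1.63) lie at the right end, beyond Capn9 at 1.27, and Etv5 lies among the widest gaps of the other direction.

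The comparison the labels give is between experimental and control arrays, and it was not used to choose the genes. Because Etv5 followed the number and not the label, and no claim on genotype is made, this comparison is not read as the effect of soluble Fgfr2b. Cym had means of 12.44 ± 2.09 and 12.28 ± 1.81 (SD, n = 4) in arrays labelled experimental and control. The difference was 0.15 ± 1.17 (SE; 95% confidence interval −2.52 to 2.83; limma, adjusted p = 0.9998). Smoc2 had means of 11.73 ± 1.26 and 11.58 ± 0.99, with a difference of 0.16 ± 0.68 (interval −1.40 to 1.71; limma, adjusted p = 0.9998). Both genes overlapped between the labelled groups, as nearly all genes did (0.952% were apart with experimental above and 0.944% with control above). By limma 0 of 24583 genes (0.0%) passed an adjusted p of 0.05, 876 had an unadjusted p under 0.05, and an unmoderated test with equal variances likewise passed 0, with 788 unadjusted.

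Within numbers 1 to 4, Cym was higher in the array labelled experimental by 0.57, 0.18, −0.32 and 0.18, and Smoc2 was higher by 0.41, 0.37, 0.00 and −0.16. With the number as a block, the interval narrowed to −0.27 to 0.57 for Cym and to −0.19 to 0.50 for Smoc2, and neither passed. For Etv5 the unpaired interval was −2.22 to 2.28. A p that misses the threshold does not show that the labelled groups were alike.

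Measured in the same RNA, other aspartic proteases did not share the pattern of Cym in size. Of 8 measured genes of this family, Cym included, 3 were apart with numbers 1 and 2 above, 1 was apart with numbers 3 and 4 above, and 4 overlapped (5.17% and 5.39% of all genes). Cym is among the 3 by its choice. The membrane proteases Bace1 and Bace2, which cleave the amyloid precursor and other surface proteins, were the others above, with gaps of 0.14 and 0.06. Napsa, which encodes the napsin A of alveolar type 2 (AT2) cells that processes surfactant protein B, ran opposite to Cym, at 4.99 to 5.86 in numbers 1 and 2 and 7.05 to 7.70 in numbers 3 and 4. The lysosomal protease Ctsd was level, at 11.91 to 12.02 and 11.80 to 11.94. The gastric pepsinogen genes Pga5 and Pgc lay at 2.37 to 3.72 and 2.29 to 4.59 over all arrays, near the lowest value of 2.00.

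Cym is a stomach gene in other mammals, so genes of gastric tissue were read on the same arrays. Of 14 stomach genes, 0 were apart with numbers 1 and 2 above, 1 (Gkn3) was apart with numbers 3 and 4 above, and 13 overlapped. Their mean signal was 3.44 to 3.58 in numbers 1 and 2 and 3.58 to 3.86 in numbers 3 and 4. Some stood near the lowest value on every array, with the gastrokine Gkn2 at 2.36 to 3.32, the trefoil factor Tff2 at 2.48 to 3.20 and the gastric transcription factor Barx1 at 2.50 to 3.47. Not all were this dim, and the highest signal of the list was 6.77. Counts of 0 and 1 of 14 are near the shares over all genes (5.17% and 5.39%).

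In the SPARC family, Smoc2 stood apart in size as well. Of 8 genes, Smoc2 included, 2 were apart with numbers 1 and 2 above (5.17% of all genes), 0 with numbers 3 and 4 above, and 6 overlapped. Smoc2 is among the 2 by its choice. The other was Sparcl1, a matrix glycoprotein also called hevin, with a gap of 0.08. Smoc1, the closest relative of Smoc2, known from the frog embryo as a Bmp antagonist, was dim and overlapped, at 3.28 to 4.74 and 3.78 to 4.73. Sparc itself lay at 15.93 or higher on all arrays, at the top of the scale, where no difference can be read. Fstl1, a secreted family member needed for lung development in the mouse, was 14.05 to 14.39 and 13.91 to 14.12.

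**Figure D3:**
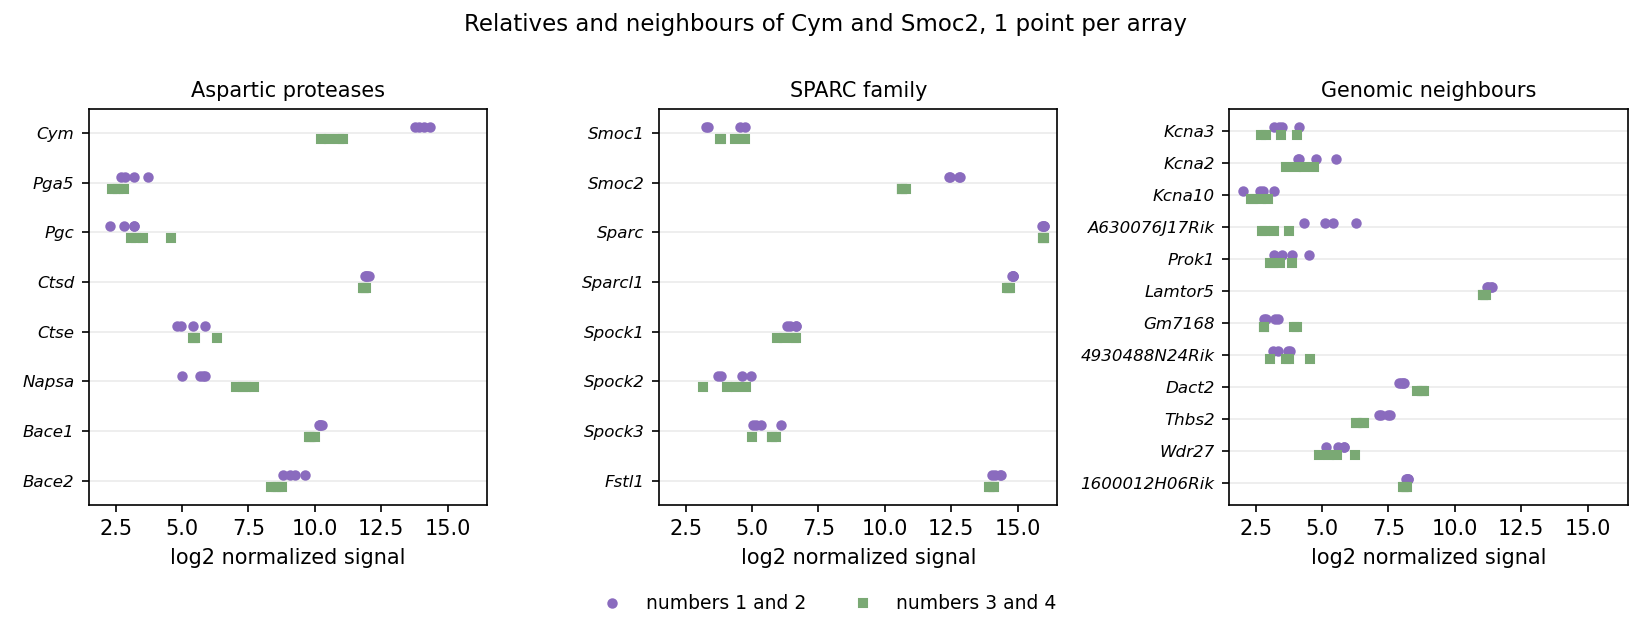
Log2 normalized signal (x axis) of the aspartic proteases, the SPARC family and the 6 nearest measured protein-coding neighbours of each gene, 1 point per array, with circles for arrays numbered 1 and 2 and squares for arrays numbered 3 and 4. Cym and Smoc2 show the widest separation with numbers 1 and 2 above in their panels, and Napsa is separated in the opposite direction. Signals of different genes come from different probes and are not compared.

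Among other matricellular genes, 3 of 12 were apart with numbers 1 and 2 above (5.17% of all genes) and 1 with numbers 3 and 4 above (5.39%). The former were Thbs2 (7.14 to 7.54 against 6.27 to 6.56), the growth factor-binding Ccn2 (gap 0.09) and Tgfbi (gap 0.11), and the latter was Ccn3 (gap 0.03). Against the same shares, of 18 genes of Bmp signaling, on which Smoc proteins are known to act, 2 were apart with numbers 1 and 2 above, the ligand Bmp2 (gap 0.15) and the extracellular modulator Bmper (0.22). In the reverse direction 7 were apart, the ligands Bmp4 and Bmp7, the target genes Id1, Id2, Id3 and Smad7, and the decoy receptor Bambi, with gaps of 0.08 (Smad7) to 1.36 (Id2). Of 9 genes of the intestinal stem cell, only the receptor Tnfrsf19 was apart in its direction (gap 0.18), Rnf43, Axin2, Cdca7 and Sox9 were apart the other way (5.17% and 5.39% of all genes), and Lgr5, named after its values were seen, overlapped (2.96 to 5.06 and 4.44 to 4.96).

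The genes next to Cym and Smoc2 on their chromosomes were read after these values had been seen. Of the 12 protein-coding neighbours measured, 3 on each side of each gene, 3 were apart with numbers 1 and 2 above (5.17% of all genes), 1 with numbers 3 and 4 above (5.39%), and 8 overlapped. A630076J17Rik, the neighbour of Cym on one side, was dim but apart, at 4.33 and 5.41 (experimental) and 5.10 and 6.27 (control) for numbers 1 and 2. Its values for numbers 3 and 4 were 2.72 and 3.19 (experimental) and 2.85 and 3.76 (control). The potassium channel gene Kcna10 on the other side was 2.03 to 3.19 and 2.34 to 2.98. Beside Smoc2 lay Thbs2, a thrombospondin, which was apart in the direction of Smoc2 by 0.58, and Dact2, a modulator of Wnt and Tgfb signaling, which was apart in the opposite direction by 0.49. Lamtor5, of the lysosomal Ragulator complex, was apart by 0.02.

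The 250 bases before the annotated start of Cym are shown because Cym and Etv5 ran in opposite directions and Etv5 binds DNA at sites with the core GGAA. The sequence is from RefSeq, build GRCm38.p6, chr3:107221733-107221982, minus strand, written 5′ to 3′ along the gene, with matches to GGAA (on either strand, here TTCC) and to the TATA box TATAAA (either strand) in capitals.
Cym promoter: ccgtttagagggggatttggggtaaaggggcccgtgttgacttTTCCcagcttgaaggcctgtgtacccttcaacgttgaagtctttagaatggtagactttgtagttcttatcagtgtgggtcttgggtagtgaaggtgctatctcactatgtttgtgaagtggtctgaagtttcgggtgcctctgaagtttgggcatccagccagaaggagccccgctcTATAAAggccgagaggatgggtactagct
The window held 1 match to GGAA and 1 to TATAAA, the latter at position −29 from the start. Over 32851 promoter windows of this length, 93.4% held the GGAA core, and 12.4% held TATAAA. The short Ets core is thus found in most promoters, and a match is neither a binding site nor a cause of the levels.

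Likeness of pattern was measured as the root mean square distance between log2 profiles, each centred on its mean over the 8 arrays, for the 12291 genes in the upper part of the table, split at the median gene mean of 5.79. The gene nearest to Cym was Smoc2, at a distance of 0.74. Next came Blnk, a signaling adaptor of B cells (0.95), the guidance cue Ntn1 (0.98), the secreted dermokine gene Dmkn (0.98), D030018L15Rik (1.05), Frs3os (1.07), Ly6h (1.08) and the sphingosine kinase Sphk1 (1.09). All 8 were apart with numbers 1 and 2 above (5.17% of all genes). Their choice by nearness to Cym, itself chosen on this division, largely fixed that in advance. Without the filter on dim genes, 2 of these 8 remained among the nearest. The step of Cym between the sets was wider than that of each of these genes.

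From Smoc2 the nearest genes were Blnk (0.25), Ly6h (0.37), Dmkn (0.41), Frs3os (0.42), Sphk1 (0.43), D030018L15Rik (0.43), the cholecystokinin receptor gene Cckar (0.45) and the heparan sulfate sulfotransferase gene Hs3st6 (0.46). Of these, 6 were also among the 8 nearest to Cym, and 3 remained among the nearest without the filter. Both genes were chosen on the step between the sets, so shared neighbours largely follow from that choice. Cym itself was at rank 197 from Smoc2. Blnk, the nearest, lay at 6.63 to 7.13 in numbers 1 and 2 and 5.22 to 5.45 in numbers 3 and 4.

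With the sign turned, the profiles nearest to Cym were those of the metalloprotease gene Adamts18 (distance 0.32), the autophagy regulator Dram1 (0.32), the transcription factor Rbpjl (0.44), Etv5 (0.44) and Sftpa1 (0.47). Those nearest to Smoc2 belonged to Etv4, the close relative of Etv5 (0.18), the lysosomal cathepsin Ctsh (0.20), Lgi3 (0.21), Napsa (0.23) and Pdpn, a marker of alveolar type 1 cells (0.23). Etv5 was at rank 59 from Smoc2, at 0.50. Etv4 was 6.92 to 7.97 in numbers 1 and 2 and 9.34 to 9.39 in numbers 3 and 4. The distance reads both the division between the sets and the size of the step. Cym and Smoc2 were chosen as high where Etv5 was low, so nearness to Etv5 with the sign turned restates that choice.

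**Figure D4:**
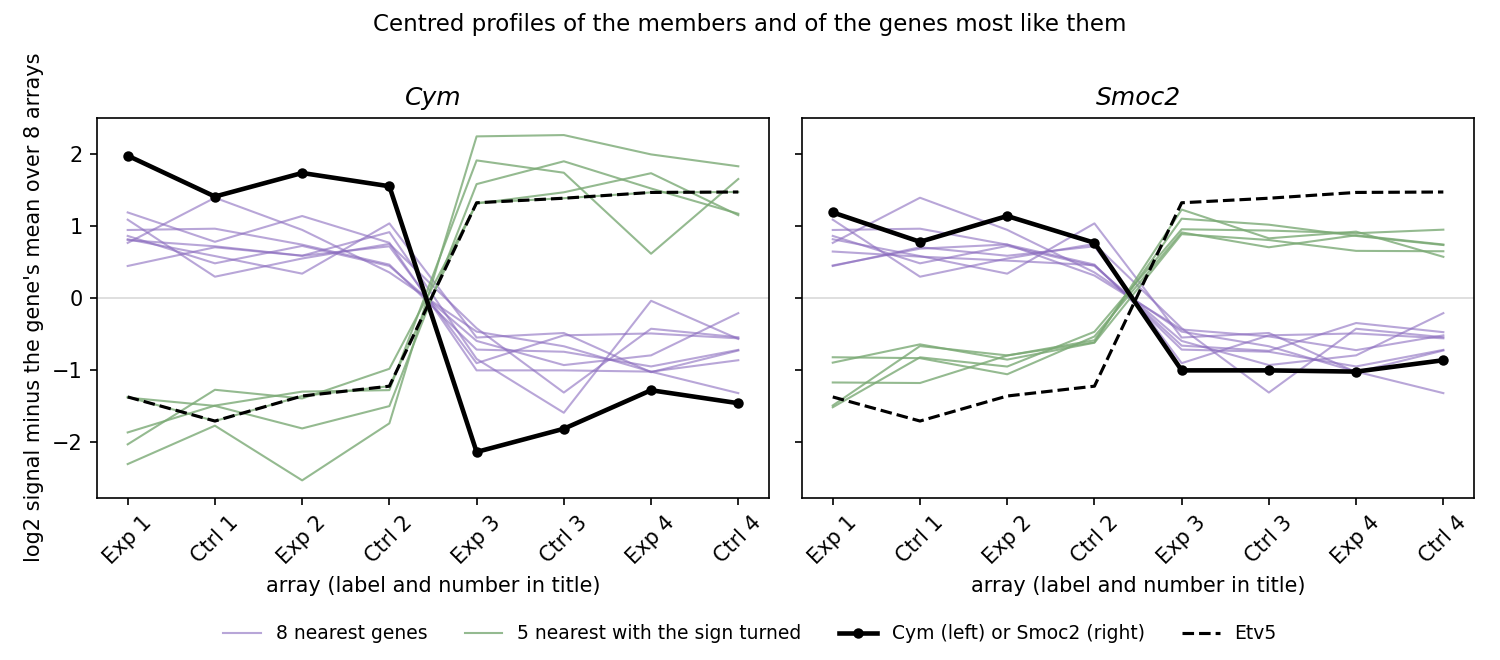
Log2 signal minus the gene's mean (y axis) on each of the 8 arrays (x axis) for Cym and Smoc2 (solid black), Etv5 (dashed), the 8 nearest genes and the 5 nearest with the sign turned, with a line joining the arrays of 1 gene. The step of Cym exceeds those of its nearest genes. Etv5 is close to the mirror image of Cym, which restates how Cym was chosen.

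Fgf target genes and cell type markers were read along the same division, for which the shares over all genes were 5.17% (numbers 1 and 2 above) and 5.39% (numbers 3 and 4 above). Of 13 Fgf targets, Etv5 included, 9 were apart with numbers 3 and 4 above, among them Etv4, the feedback inhibitors Spry1 and Spry2 and the phosphatases Dusp4 and Dusp6. Etv5 is among the 9 because it set the sets apart. Il17rd, an inhibitor of Fgf signaling also called Sef, was apart in the direction of Cym (gap 0.13), and 3 overlapped, Etv1 at 10.62 to 11.05 and 10.36 to 10.94, Spry4 and Dusp5. Of 12 distal tip genes 9, and of 10 AT2 genes 8, were apart with numbers 3 and 4 above, and 0 the other way. The lists share genes, so these counts are not independent. Bmp4, Id2 and Sox9 (distal tip) and Napsa (AT2) were also counted in lists above. Of 8 smooth muscle genes 5, and of 14 lung mesenchyme genes 5, were apart with numbers 1 and 2 above, and 1 mesenchyme gene the other way. Of 18 pan-epithelial genes, 6 were apart with numbers 3 and 4 above, 0 the other way, and 12 overlapped. Other lists mostly overlapped, with 7 of 8 endothelial, 7 of 8 cardiac, 5 of 7 leukocyte, 5 of 5 mesothelial and 8 of 8 erythroid genes. Of 6 neuron and neural crest genes, 4 overlapped, Ret was apart with numbers 1 and 2 above (gap 0.88) and 1 the other way. The myosin gene Myh7, not on the cardiac list, was apart with numbers 3 and 4 above by 3.09. The airway list had 0 of 9 apart in either direction (overlap in all 9), and its mean was highest in control 1 (8.93 against 7.45 to 7.93 on the other arrays). Without control 1 the gap was 2.83 for Cym and 1.63 for Smoc2, though leaving out an array can only keep or widen it.

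The labelled tissue was borne out by its markers over all arrays, with Epcam at 9.87 to 10.47, Nkx2-1 at 10.39 to 11.38, Sftpc at 14.37 to 15.99, Col1a1 at 14.38 to 14.71 and the leukocyte gene Ptprc at 9.61 to 10.29. Among these, Nkx2-1 and Epcam were apart with numbers 3 and 4 above, and Col1a1 with numbers 1 and 2 above. The mean of 18 pan-epithelial genes was 9.80 to 10.03 in numbers 1 and 2 and 10.10 to 10.24 in numbers 3 and 4. After subtraction of that mean from each array, the gap was 3.04 for Cym and 1.74 for Smoc2. Because the mean was higher in numbers 3 and 4, its subtraction could only widen these gaps. The mean of the AT2 list was 7.23 to 7.51 and 8.85 to 9.29, and that of the smooth muscle list 10.37 to 10.63 and 10.05 to 10.14. The part of these cell types in the levels of Cym and Smoc2 was not tested, and in whole lobes more cells of a type and more RNA per cell cannot be told apart.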

How the data were processed

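RNA of 8 left lung lobes was measured on Agilent one-colour arrays. The authors corrected background with normexp, normalized between arrays by quantiles and deposited log2 values for 62976 spots. These values were used as they were, so background correction and normalization could not be varied. Precision is limited by the 4 arrays per labelled group, and values near the lowest (2.00) or highest compress differences. Of the spots, 43941 carried 1 gene symbol and 19035 none, and 33708 accessions matched RefSeq. The brightest spot by mean represented each of 24583 genes, and 2 spots lacking a value on 1 array were left out. Groups followed the sample titles. The litter of each embryo is unknown here, and any p-value speaks only for the spread among these lobes, which may be partly technical. Labelled groups were compared with limma 3.58.1 (R 4.3.3, lmFit and eBayes, all 8 arrays, Benjamini-Hochberg adjustment over all genes), a script tested on simulated data. The gap is the lowest array of one set minus the highest of the other. The main comparison was unpaired. Deviations from the group means correlated between samples of the same number (0.109, 0.146, 0.124 and 0.117), so a fit with the number as a block was also made. The sets and the sex-linked levels also go with the number, so these correlations do not by themselves show that samples were paired. The moderated statistic of limma is the one the study's methods name. Other alternatives were an unmoderated test with equal variances, the mean of all spots, a filter on dim genes, robust trend, subtraction of the pan-epithelial mean and leaving out each array. Named were both genes, Etv5, members of the protease, SPARC, Fgf target and stomach lists, genes of other lists whose sets did not overlap, tissue and sex-linked markers, and the 8 nearest profiles and 5 nearest with the sign turned. The widest gaps and the chromosomal neighbours were added after their values were seen. Members and lists were chosen with earlier results of these data known.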

Additional observations from a re-analysis of the deposited data

How the results depend on the processing

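No gene passed the comparison of labelled groups in any setting, out of 24583 genes, or of 12291 with the filter on dim genes. This held without each array and by an unmoderated test with equal variances. An unadjusted p under 0.05 was reached by 285 genes with that filter and by 616 to 1182 in the other settings. With the replicate number as a block, the difference between labels was 0.15 ± 0.16 (SE) for Cym, 0.16 ± 0.14 for Smoc2 and 0.03 ± 0.12 for Etv5, and the block changed no call. Leaving out 1 array turned the sign of these differences for 4 of the 8 arrays (experimental 1 or 2 or control 3 or 4 for Cym and Smoc2, experimental 3 or 4 or control 1 or 2 for Etv5), and they ranged from −0.48 to 0.89 for Cym, −0.22 to 0.52 for Smoc2 and −0.53 to 0.53 for Etv5. After subtraction of the pan-epithelial mean, the difference of Etv5 was −0.038. The adjusted p stayed between 0.9991 and 0.99999. The gap between sets kept its direction throughout. Without single arrays it was 2.69 to 2.87 for Cym, 1.63 to 1.77 for Smoc2 and 2.55 to 2.68 for Etv5. Leaving out an array can only keep or widen this gap, so these values are no check of it. With the pan-epithelial mean subtracted the gap was 3.04 for Cym and 2.30 for Etv5. That mean was higher in numbers 3 and 4, so its subtraction widens the gap of Cym and narrows that of Etv5. In the arrays numbered 1 and 3 alone, a setting chosen after seeing the data, the gap was 3.22 for Cym. A part of the arrays can only keep or widen it. For Smoc2 the gap was 1.18 with the mean of its spots and 0.22 on the third spot, which is dim. Without the filter on dim genes, 2 of the 8 nearest to Cym and 3 of the 8 nearest to Smoc2 remained, and without single arrays 5 to 8 of each. The fewest, 5, remained for Cym without experimental 4 and for Smoc2 without experimental 4 or control 3. The cause of these shifts was not tested. The distance between Cym and Smoc2 was 0.64 to 0.78 without single arrays.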
